A study of Homo sapiens with 24 samples.

Results

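The unfolded protein response and endoplasmic reticulum (ER) folding genes examined here are a list of 40 genes of the pathway, and all 40 had at least 1 region of the histone mark H3K4me3 near a start site in the human pancreatic beta cell line EndoC-βH3. Regions reaching within 2 kb of a gene's annotated start sites were candidates, and the one with the highest mean signal stood for the promoter. By this rule 15085 of the 20020 genes annotated as protein-coding received a promoter region. The 40 members had 40 different regions.

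H3K4me3 is trimethylation of lysine K4 on the tail of histone H3, a mark laid down around the start sites of active genes and of genes poised for activity. The unfolded protein response senses misfolded protein in the ER through the membrane proteins IRE1, PERK and ATF6. They act through the transcription factors XBP1, ATF4 and the cleaved form of ATF6, which raise the genes for chaperones, disulfide-forming enzymes, the translocon and the machinery that returns misfolded protein to the cytosol for degradation. Beta cells make and secrete large amounts of insulin, a disulfide-bonded hormone folded in the ER, and mutations in the genes for PERK and wolframin cause forms of diabetes.

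H3K4me3 was profiled by MINT-ChIP, a multiplexed form of chromatin immunoprecipitation with sequencing in which barcoded chromatin from several samples is pooled before the antibody step. The 8 H3K4me3 samples were 4 of non-senescent cells, labelled control, and 4 of senescent cells, each from 500000 cells of the same WT line. EndoC-βH3 is 1 cell line of fetal pancreatic origin, immortalized with the transgenes hTERT and SV40 Large T-antigen. Its CreER recombinase, activated by 4-hydroxytamoxifen (4-OHT), excises these transgenes, and senescence was induced with 4-OHT for 3 weeks. The labels give the 4-OHT concentration as 1 mM, and the methods of the study give it in micromolar. The other 16 samples of the series, for H3K27me3 and H3K9me3, were not analysed here.

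The value used throughout is the authors' mean normalized read count of a region over the 8 samples of both states, termed the mean signal. It carries no value per sample, so no SD, interval or test over samples could be given, the depth of each sample is unknown, and nothing below compares senescent with non-senescent cells. The table held 97545 regions, of which 23103 (23.7%) lay near a start site of a protein-coding gene. Among fixed markers of the cell type, 13 of 14 beta cell genes had a promoter region, 10 of them above the median of all promoters. NEUROD1 stood at 387, NKX2-2 at 372 and PDX1 at 260.5, and MAFA had no region. Below that median were KCNJ11 at 27.7, INS at 24.7 and IAPP at 6.94. Of 14 genes that mark other cells of the pancreas, 9 had a region and 1, the macrophage gene CD68 at 97.1, was above that median. The CD68 region held no start site of the gene and lay 1734 bases from the nearest one. The duct gene KRT19 at 24.1 and the delta cell gene SST at 21.9 stood near INS.

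The stretches of promoter that carry a known stress element are shown first, since the members are described by these elements throughout. The ER stress element, bound by ATF6 together with NF-Y, was searched as CCAAT, a gap of 9 bases and CCACG. The ER stress element II was searched as ATTGG, a gap of 1 base and CCACG. Both strands were searched in RefSeq promoter windows from 250 bases before to 50 after each start site (GRCh38.p14), which were present for 37 of the 40 members and for 11941 of the 15085 genes with a region. PDIA3, DERL1 and DERL3 had none.

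The ER stress element was present at 8 of 37 members (21.6%) and at 17 of 11941 genes with a region (0.142%), members included. The stretches below run 5′ to 3′ on the strand of the gene, capitals mark the element, and it reads as CGTGG, the gap and ATTGG where it lies in the opposite orientation. Positions in parentheses are counted from the start site of the window as 0, and flanks were shortened where the annotation gives untranslated sequence.
XBP1 chr22:28800573-28800651, minus strand (−82 to −4): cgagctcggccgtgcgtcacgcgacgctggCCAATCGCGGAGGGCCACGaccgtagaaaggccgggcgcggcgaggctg
HSP90B1 chr12:103930211-103930239, plus strand (−199 to −171): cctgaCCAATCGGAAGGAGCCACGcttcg
HSP90B1 chr12:103930316-103930344, plus strand (−94 to −66): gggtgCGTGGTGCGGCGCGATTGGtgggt
CANX chr5:179698773-179698801, plus strand (−156 to −128): cccggCCAATCTTCACACTCCACGaagaa
ERO1B chr1:236282153-236282208, minus strand (−250 to −195): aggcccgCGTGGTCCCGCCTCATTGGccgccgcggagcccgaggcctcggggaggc
CALR chr19:12938359-12938432, plus strand (−250 to −177): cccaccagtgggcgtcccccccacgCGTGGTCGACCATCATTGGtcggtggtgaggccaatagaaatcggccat
PDIA6 chr2:10812823-10812901, minus strand (−116 to −38): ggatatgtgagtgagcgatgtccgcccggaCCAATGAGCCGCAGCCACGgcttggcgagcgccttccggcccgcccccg
CRELD2 chr22:49918524-49918602, plus strand (−110 to −32): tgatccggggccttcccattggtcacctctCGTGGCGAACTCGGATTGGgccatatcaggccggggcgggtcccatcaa

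HSPA5, which encodes the chaperone BiP, was the other member with this element. Its sequence is given at length with the element and the separate NF-Y boxes (CCAAT, or ATTGG on the other strand) in capitals, because 4 NF-Y boxes including that of the element lay upstream of the start site and another lay downstream of it.
HSPA5 chr9:125241353-125241593, minus strand (−250 to −10): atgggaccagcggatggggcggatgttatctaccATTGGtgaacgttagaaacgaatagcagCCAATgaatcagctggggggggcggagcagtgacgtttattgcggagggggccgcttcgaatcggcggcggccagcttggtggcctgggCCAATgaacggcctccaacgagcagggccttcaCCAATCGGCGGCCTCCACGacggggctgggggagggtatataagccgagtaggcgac

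The ER stress element II was present at 3 of 37 members (8.11%), HERPUD1, HYOU1 and SDF2L1, and at 13 of 11941 genes with a region (0.109%). In HYOU1, which had 2 matches, capitals also mark the unfolded protein response element TGACGTGG, a sequence bound by XBP1 and ATF6. It shares 5 bases with the upstream match, so these are not separate sites.
HERPUD1 chr16:56931995-56932065, plus strand (−147 to −77): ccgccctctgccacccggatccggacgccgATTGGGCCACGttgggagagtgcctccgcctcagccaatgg
SDF2L1 chr22:21642084-21642154, plus strand (−218 to −148): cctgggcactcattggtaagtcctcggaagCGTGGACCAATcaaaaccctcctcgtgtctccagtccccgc
HYOU1 chr11:119057206-119057455, minus strand (−250 to −1): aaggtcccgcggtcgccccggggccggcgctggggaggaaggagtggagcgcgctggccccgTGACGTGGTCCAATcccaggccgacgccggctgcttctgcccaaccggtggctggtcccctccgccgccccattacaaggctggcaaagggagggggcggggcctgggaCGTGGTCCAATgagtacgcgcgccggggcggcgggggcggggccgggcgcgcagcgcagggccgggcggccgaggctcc

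Together 11 of 37 members (29.7%) held an ER stress element of either kind, against 30 of 11941 genes with a region (0.251%), so that 11 of the 30 genes found were members. Both search patterns are elements already known from promoters of this pathway, so the contrast is not an independent property of the set. None of 56 other ER genes with a window, from a list given below, held either kind. That is near the 0.251% of all genes, so it does not set these 56 apart from genes at large. The 13 matches in members lay between −243 and −34 from the start site. Of the 9 matches of the longer element 5 were in the orientation of the gene, and in 7 of 9 the gap held at least 6 G or C bases out of 9. The exceptions were CALR with 5 and CANX with 4. No such count was made for other promoter sequence. Of the 13 matches, 12 lay inside the strongest H3K4me3 region of their gene, and that of CRELD2 lay in no region. The strongest region held the start site of Ensembl's canonical transcript at 72.5% of members and 64.1% of all promoters. How often windows without an element lie inside it was not counted. With 1 mismatch allowed over the fixed bases, 17 of 37 members had a match, but so had 4.49% of genes with a region.

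The C/EBP-ATF element, searched as TGATG, any base and AA, is a composite site bound by ATF4 and C/EBP proteins such as CHOP. It was present at 4 of 37 members (10.8%), ATF3, CHAC1, CREB3L2 and HERPUD1, and at 366 genes with a region (3.07%). ATF3 and CHAC1 are known targets of the PERK and ATF4 branch. The CREB3L2 match lay downstream of the start site of an alternative window. That of ATF3 lay in no region, in an alternative window far upstream of the canonical start site. The 3 upstream stretches are printed with the element in capitals, which in CHAC1 and HERPUD1 lies in the opposite orientation.
ATF3 chr1:212565186-212565253, plus strand (−221 to −154): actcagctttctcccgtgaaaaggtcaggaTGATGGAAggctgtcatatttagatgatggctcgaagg
CHAC1 chr15:40953251-40953280, plus strand (−220 to −191): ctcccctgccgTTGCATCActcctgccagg
HERPUD1 chr16:56931936-56932003, plus strand (−206 to −139): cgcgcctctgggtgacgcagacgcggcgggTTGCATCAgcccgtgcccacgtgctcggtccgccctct

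The NF-Y box CCAAT alone, which is contained in every ER stress element of either kind, was present at 30 of 37 members (81.1%) and at 5136 of 11941 genes with a region. Leaving out boxes inside an element, 29 of 37 members still had one. The share of all genes was not recounted in this way, and an element of either kind was at 0.251% of them. With boxes inside an element counted again, at least 3 boxes in 1 window were found at 14 of 37 members (37.8%). The same held for 665 of 11941 genes (5.57%). HSPA5, HSP90B1 and SEL1L each had 5, and CALR, CREB3L2, EIF2AK3 and SDF2L1 each had 4. Of the boxes of HSP90B1, 2 were those of its ER stress elements. In CREB3L2, 2 boxes on opposite strands overlapped, so these are not separate sites. The remaining motifs were found at few members. The unfolded protein response element was at HYOU1 and TXNDC5 (2 of 37, 5.41%, against 1.16% of genes). At HYOU1 it is the match printed above, which shares bases with an ER stress element II. At TXNDC5 it lay in an alternative window, downstream of the canonical start site, and in no region. The cyclic AMP response element TGACGTCA was at CREB3L2 and PPP1R15A (2 of 37, against 3.58%). The TATA box TATAAA was at ATF3, ATF4, CALR, HERPUD1, P4HB and PPP1R15A (6 of 37, 16.2%, against 9.71%). The ATF3 TATA box lay in an alternative window and in no region. A match is a run of letters in the window and was not read as a bound site, and members were compared with all genes without a test.

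**Figure D1:**
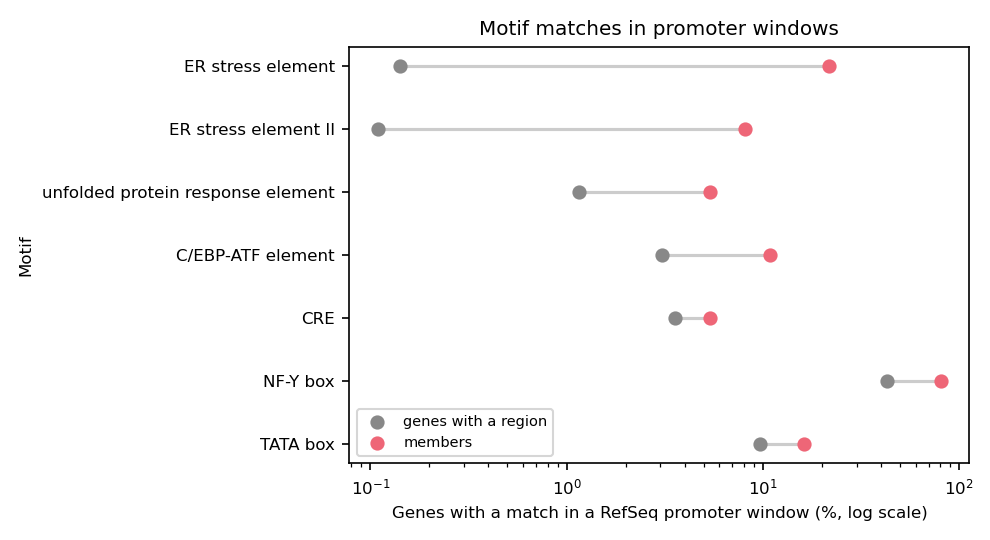
Share of genes with a match to each motif in a RefSeq promoter window (per cent, log scale) for the 37 members with a window (red) and the 11941 genes with an H3K4me3 region and a window (grey). The ER stress element stands at 21.6% of members and 0.142% of genes, while the CRE stands at 5.41% and 3.58%.

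H3K4me3 at most members was above the middle of all promoters, over a wide range. The median mean signal of the 40 members was 102 normalized counts (lower and upper quartiles 71.8 and 134), against 49.2 (21.3 and 88.6) for all 15085 promoters. Of the 40, 33 (82.5%) were above the median of all promoters and 23 (57.5%) were above its upper quartile, while 1 was below its lower quartile. The level ran from 9.25 at TRIB3 to 204 at DNAJC3. A wider region collects more reads, and per kb of region the difference was smaller, with a median of 22.4 normalized counts per kb against 19.0, and with 27 of 40 above the median of all promoters. The members' regions were also wider, with a median of 4246.5 bp against 2492 bp, and 15 of 40 (37.5%) spanned at least 5 kb against 1370 of 15085 (9.08%).

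**Figure D2:**
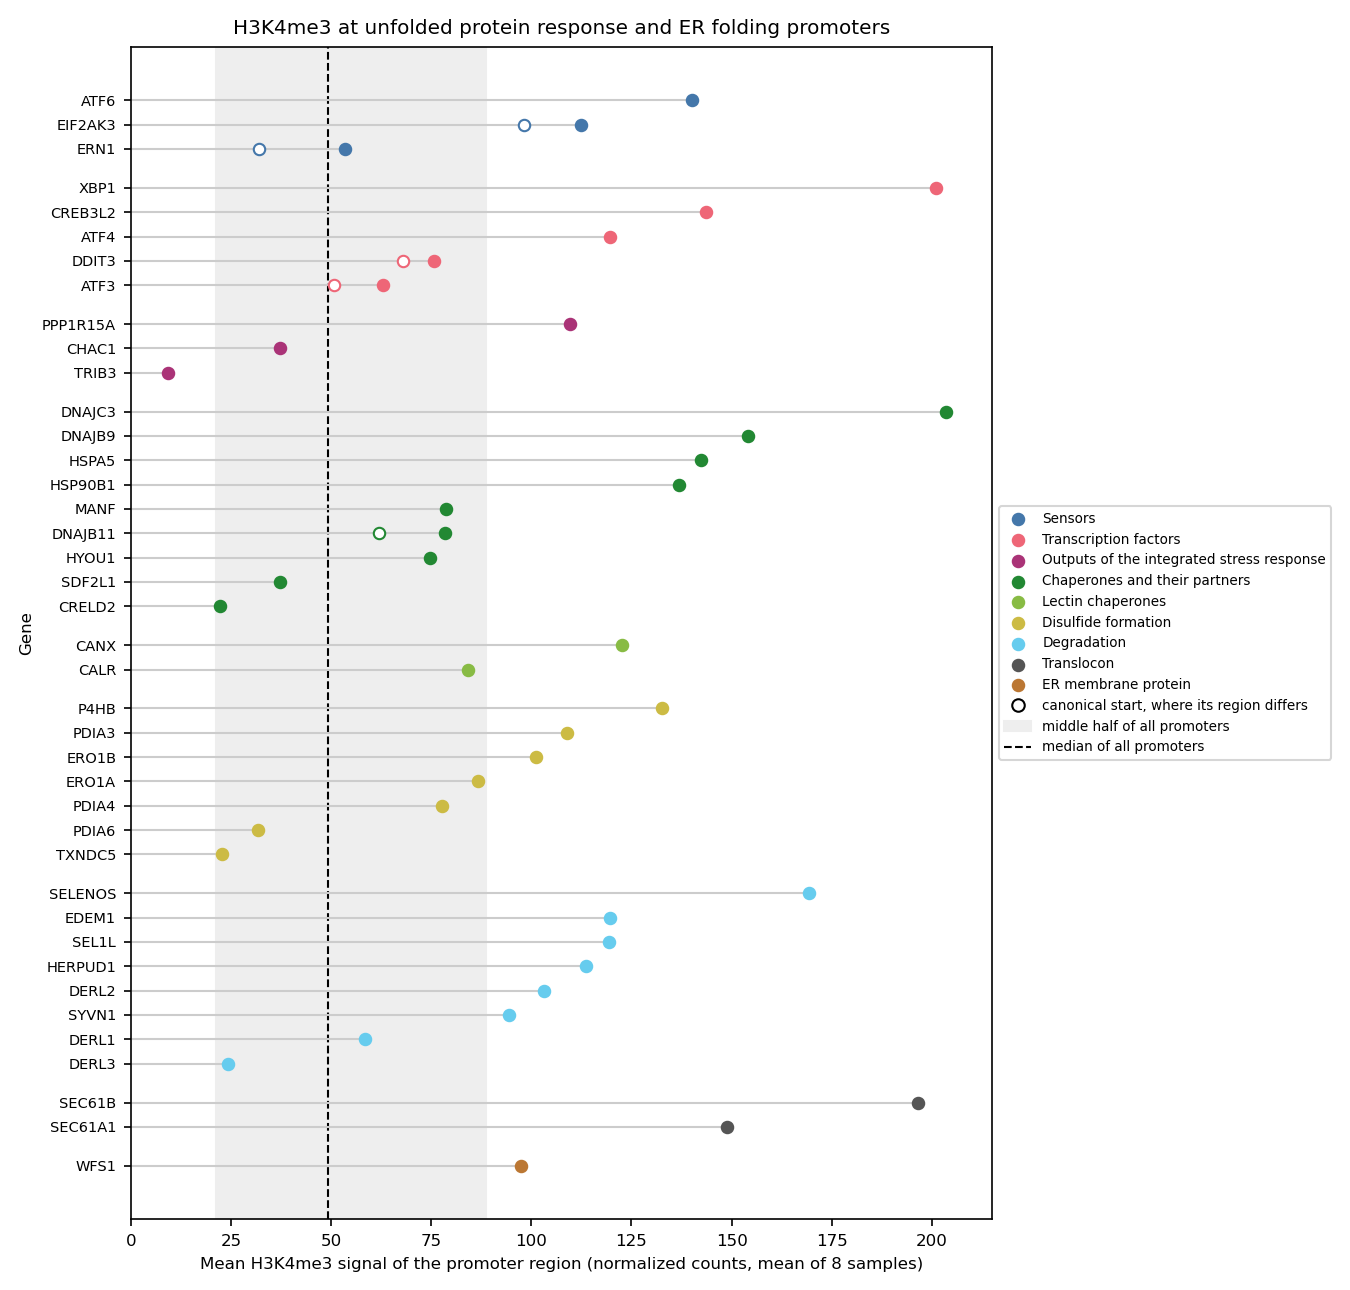
Mean H3K4me3 signal (normalized counts, mean of the 8 samples) of each of the 40 members, grouped by role, with the median of all 15085 promoters (49.2, dashed) and the range between their quartiles (shaded). Filled points are the strongest region, open points the region at the start site of Ensembl's canonical transcript where that is another region, and 7 filled points lie below the dashed line.

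The 3 sensors of the response were all above the median of all promoters. ATF6 had 140.2 in a region of 5832 bp around its start site. EIF2AK3, which encodes PERK, had 113, but in a region shared with RPIA, from −67564 to −62250 bases of its canonical start site, where another annotated transcript begins. The region at its canonical start site held 98.1 over 5455 bp. ERN1, which encodes IRE1, was the lowest of the sensors, with 53.5 in a region from 44656 to 48789 bases downstream of its canonical start site, around an internal start site. Around the canonical start site of ERN1 lay 2 weaker regions, of 32.1 and 6.63, with 718 bp between them.

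Among the transcription factors XBP1 was second of all members. Its region at chr22:28794882-28801745 (minus strand gene) had a mean signal of 201, higher than 97.2% of all promoters, and a width of 6863 bp (29.3 normalized counts per kb). It overlapped all 6 exons of the canonical transcript, spanned 94.6% of its length, and held the element printed above. CREB3L2, an ER-bound relative of ATF6, had 144 over 7559 bp in a region shared with AKR1D1. ATF4, the factor translated when PERK phosphorylates eIF2α, had 119.8 over 6220 bp, which covered the whole of its 2122 bp gene. DDIT3 and ATF3, the stress-induced factors CHOP and ATF3, were the lowest of this group. The strongest region of DDIT3 (75.7) lay upstream of its canonical start site and was shared with MBD6, and that at the canonical start held 67.9. The strongest region of ATF3 (63.0) lay from −42403 to −40832 bases, 1024 bases from an alternative start site, and that at the canonical start held 50.7.

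The outputs of the integrated stress response spanned most of the range. PPP1R15A, which encodes the phosphatase subunit GADD34 that ends the translational block, had 109.6 over 4969 bp, and the region covered all 3 of its exons. CHAC1, a glutathione-degrading enzyme, had 37.1, below the median of all promoters. TRIB3, a pseudokinase induced by ATF4 and CHOP, was the lowest of the 40. Its region at chr20:381518-382661 (plus strand gene) had 9.25, higher than 12.9% of all promoters, over 1143 bp (8.09 per kb), and lay downstream of the canonical start site. A second region that held this start had 8.21.

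Of the 9 chaperones and their partners 7 were above the median of all promoters. DNAJC3, a co-chaperone of BiP, was the highest of all members, with 204 in chr13:95673207-95680362 (plus strand), 7155 bp wide and 28.4 per kb, which is higher than 97.4% of all promoters in mean signal. DNAJB9, another BiP partner, had 154 in chr7:108567882-108572158 (plus strand), 4276 bp wide and 36.0 per kb, and shared the region with PNPLA8 and THAP5. HSPA5 itself had 142 in chr9:125236089-125242766 (minus strand), 6677 bp wide, higher than 91.4% of promoters in mean signal but than 58.1% per kb (21.3). This region overlapped all 8 exons and spanned 81.0% of the canonical transcript. HSP90B1, the ER form of HSP90, had 137 in chr12:103927599-103933606 (plus strand), 6007 bp wide and 22.8 per kb.

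The other chaperone genes were lower. MANF, a secreted protein that binds BiP, had 78.8 in a region shared with RBM15B. DNAJB11 had 78.4 in a region upstream of its canonical start shared with TBCCD1, and 62.0 at the canonical start. HYOU1, a large HSP70 relative that exchanges the nucleotide of BiP, had 74.7 in chr11:119055623-119058541 (minus strand), 2918 bp wide and 25.6 per kb. SDF2L1, part of a BiP complex, had 37.3 in chr22:21641182-21643929 (plus strand), which overlapped its 3 exons, spanned 81.5% of its length and had 13.6 per kb over 2747 bp. CRELD2 had 22.3 in chr22:49916876-49918478 (plus strand), 1602 bp wide and 13.9 per kb. The CRELD2 region was shared with ALG12 and ended 156 bases before the canonical start site, and the ER stress element of CRELD2 lay in the gap of 624 bp between it and a weaker region of 6.08.

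The lectin chaperones hold glycoproteins during folding. CANX (calnexin) had 123 in chr5:179697756-179700774 (plus strand), 3018 bp wide, and its 40.6 per kb was higher than 94.9% of all promoters. CALR (calreticulin) had 84.3 in chr19:12937724-12940845 (plus strand), 3121 bp wide and 27.01 per kb, overlapping 7 of its 9 exons.

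Among the 7 genes of disulfide formation the mean signal ran from 22.9 to 133, with 5 above the median of all promoters. P4HB, the main protein disulfide isomerase, had 133 over 5166 bp. PDIA3, the isomerase that works with the lectin chaperones, had 109 in only 1841 bp, and its 59.1 per kb was higher than 99.3% of all promoters. The oxidases that recharge these enzymes had wide regions, with a signal per kb below the median of all promoters. ERO1B, the form most abundant in the pancreas, had 101 in chr1:236275912-236283563 (minus strand), which at 7651 bp was the widest of the 40 regions and had 13.2 per kb. ERO1A had 86.6 over 5563 bp, at 15.6 per kb. PDIA4 had 77.8. PDIA6 had 31.9 in chr2:10810368-10813642 (minus strand), 3274 bp wide and 9.73 per kb, higher than 34.9% of promoters in mean signal and 15.9% per kb. TXNDC5 had 22.9 in chr6:7910821-7912106 (minus strand), 1285 bp wide and 17.8 per kb. It ended 33 bases before the canonical start site, with a gap of 659 bp to a second region of 14.1.

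Of the 8 degradation genes 7 were above the median of all promoters. SELENOS, a membrane selenoprotein of the retrotranslocation complex, had 169 in chr15:101275907-101278663 (minus strand), only 2756 bp wide, and its 61.4 per kb was the highest of the 40 and higher than 99.4% of all promoters. HERPUD1, which organizes the ubiquitin ligase, had 114 in chr16:56931899-56936206 (plus strand), 4307 bp wide and 26.4 per kb. This region began 243 bases upstream of the start site and held both printed elements. EDEM1 (119.7), SEL1L (119), DERL2 (103) and SYVN1 (94.5), which pick, hold and ubiquitinate misfolded proteins, followed, and the DERL2 region was shared with MIS12. DERL1 had 58.6 in a region shared with TBC1D31. DERL3 was the exception, with 24.3 in chr22:23837771-23840065 (minus strand), 2294 bp wide and 10.6 per kb.

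The 2 subunits of the translocon, the channel through which new chains enter the ER, were both high. SEC61B had 197 in chr9:99218282-99225044 (plus strand), 6762 bp wide and 29.1 per kb, in a region shared with ALG2. SEC61A1 had 149 over 5087 bp in a region shared with MGLL. WFS1, the ER membrane protein wolframin, had 97.5 in a region that began 625 bases downstream of its canonical start site, with a gap of 759 bp to a region of 17.6 upstream.

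Within families of related genes the spread of mean signal varied. DERL2, DERL1 and DERL3 stood at 103, 58.6 and 24.3, the oxidases ERO1B and ERO1A at 101 and 86.6, and the isomerases P4HB, PDIA3, PDIA4, PDIA6 and TXNDC5 at 133, 109, 77.8, 31.9 and 22.9. Per kb the order of the isomerases was another, with PDIA3 at 59.1, P4HB at 25.7, PDIA4 at 23.9, TXNDC5 at 17.8 and PDIA6 at 9.73, and ERO1A (15.6) stood above ERO1B (13.2). With no value per sample, which neighbours in these orders differ beyond the spread of the samples cannot be said. Members with an ER stress element had a median of 101 (8 of 11 above the median of all promoters) and the 26 searched members without one a median of 106 (23 of 26). In a region shared with another gene, the mark of the neighbours cannot be told apart, and this held for 11 of 40 members (27.5%) and 26.2% of all promoters.

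The members' regions were then set beside those of promoters of similar mean signal, for each member the 200 nearest in rank. Of the 40, 29 were wider than the median of their 200, and 20 were above the upper quartile, with a median percentile of 76. Since mean signal was matched, signal per kb moved the other way, with 11 of 40 above the median. The widest for their signal were ERO1B (7651 bp against a median of 3824.5 bp among its 200), CREB3L2 (7559 against 4551 bp), ATF4 (6220 against 4121 bp), ERO1A (5563 against 3304 bp), SEL1L (6173 against 4121 bp), ERN1 (4133 against 2648 bp) and PDIA6 (3274 against 1893 bp). A smaller group was narrow. PDIA3 (1841 against 4026 bp), ATF3 (1571 against 2911.5 bp) and SELENOS (2756 against 5161 bp) were at or below the 2.5 percentile, and DNAJB11, TXNDC5, DDIT3 and CANX were between 11.3 and 20.5. Of these, only SELENOS and CANX had a strongest region that held the canonical start site. With the canonical start alone, the region spanned 3970 bp at ATF3, 4321 bp at DDIT3 and 3138 bp at DNAJB11, and was unchanged at PDIA3 and TXNDC5. ERN1, among the wide ones, then had a region of 1602 bp.

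**Figure D3:**
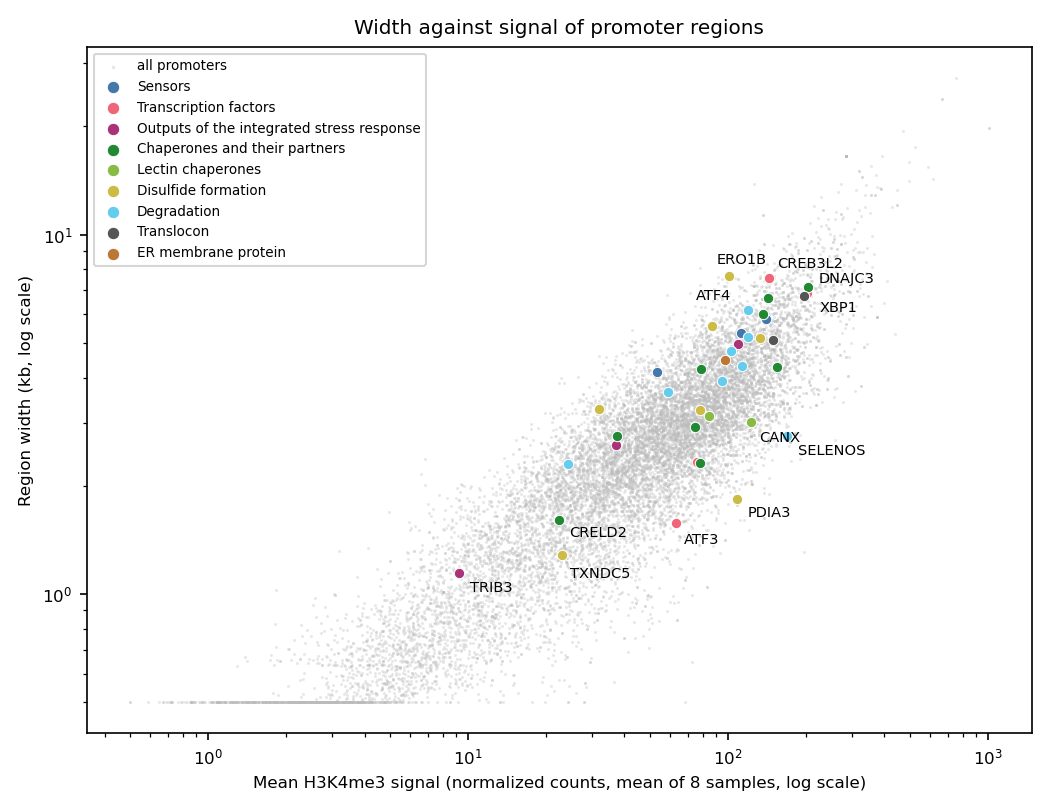
Width (kb) against mean signal (normalized counts) of the promoter region on log scales, for all 15085 promoters (grey) and the 40 members (coloured by role). ERO1B (101 over 7651 bp) lies at the upper edge of the cloud and PDIA3 (109 over 1841 bp) at the lower edge.

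GC content was above the median of the 200 similar promoters in 28 of 40, and the CpG ratio, observed over expected from base composition, in 14 of 40. Against all promoters, the median GC content of the members was 50.4% against 51.3%, and their median CpG ratio was 0.564 against 0.587. The CpG ratio was lowest against similar promoters at ERN1, ATF3, SEL1L, WFS1 and MANF, between the 0.5 and 2.75 percentiles, and highest at CANX (0.758, percentile 94). Of these low ratios, only that of SEL1L was measured on a region that held the canonical start site.

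**Figure D4:**
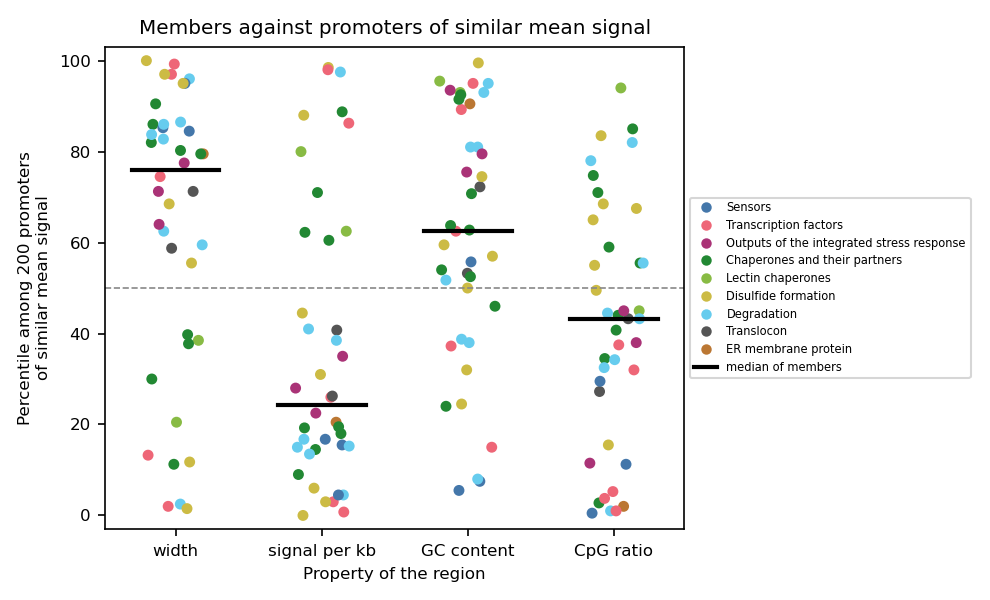
Percentile of each member's region among the 200 promoters nearest in mean signal, for width, signal per kb, GC content and CpG ratio. Points are the 40 members coloured by role, bars their medians (76 for width, 24.25 for signal per kb) and the dashed line the middle of the 200 promoters.

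The regions were placed against the canonical start site of each gene. In 29 of 40 members (72.5%) the strongest region held this site, against 64.1% of all promoters. Some region held it in 34 of 40 (85.0%), against 70.4% of all promoters. Where the strongest region held it, the region reached a median of 1423 bases upstream and 2762 downstream, against 1116 and 1687 for all promoters, and 23 of 29 (79.3%) reached farther downstream than upstream, against 71.6%. The longest downstream reaches were 6046 bases at ERO1B, 5816 at CREB3L2, 5687 at XBP1 and 5254 at HSPA5. The other 6, DNAJC3, SEC61B, SEL1L, DERL2, SYVN1 and CHAC1, reached farther upstream than downstream, with 4124 bases upstream at SEL1L.

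In 6 of 40 members (15.0%) the canonical start site fell between regions that flanked it, against 14.1% of all promoters. They were PDIA3, WFS1, MANF, ERN1, TXNDC5 and CRELD2, with gaps of 403 to 759 bp. The stronger flank was downstream in PDIA3, WFS1, MANF and ERN1 and upstream in TXNDC5 and CRELD2. More than 1 region near any start site was found at 20 of 40 members and 44.5% of all promoters.

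**Figure D5:**
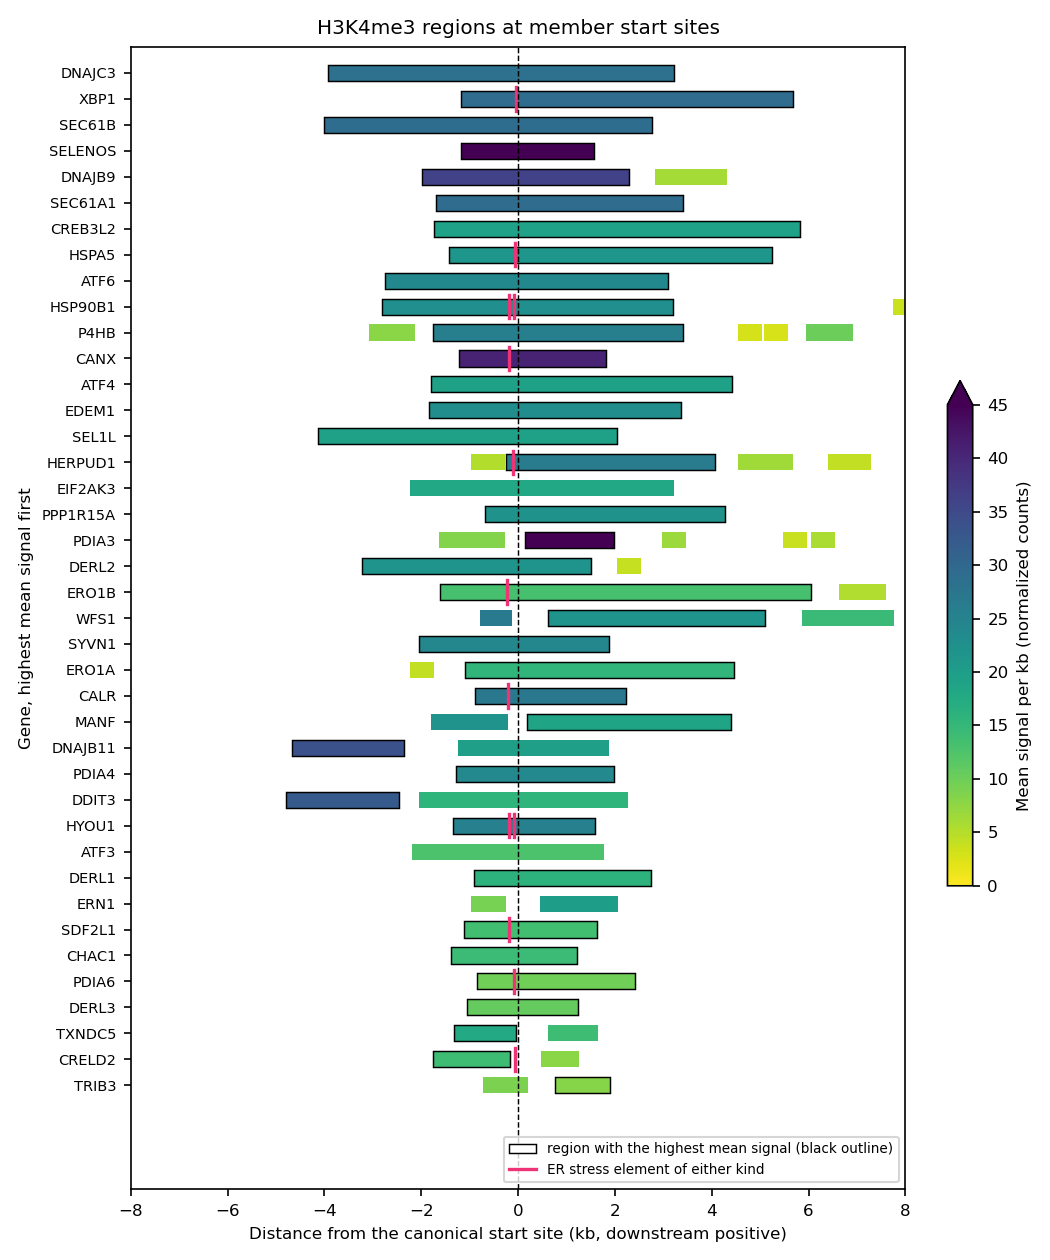
H3K4me3 regions within 8 kb of the canonical start site of each member (kb, downstream positive), ordered by mean signal and coloured by mean signal per kb, with the strongest region outlined in black and ER stress elements as red bars. For EIF2AK3, ATF3 and ERN1 the strongest region lies outside the range shown, and 12 of 13 elements fall inside the outlined regions.

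With start sites taken from the canonical transcript alone, 35 of 40 members kept the same region. The exceptions were EIF2AK3, DDIT3, DNAJB11, ATF3 and ERN1, each lower at its canonical start, and ERN1 at 32.1 was then below the median of the promoters so defined, with 35.1% of them lower.

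The other genes of the pathway, 69 genes in 5 groups, were measured in the same way. Of the 69, 65 had a region, with a median of 78.0 normalized counts, and 50 of the 65 (76.9%) were above the median of all promoters, beside 33 of 40 members. Per kb their median was 24.3, above the 22.4 of the members and the 19.0 of all promoters. Their median width was 3472 bp, between the 4246.5 bp of the members and the 2492 bp of all promoters. A higher signal per kb and a wider region than at all promoters were thus not particular to the members. Genes of further oxidation and folding had a median of 105 (11 of 13 above), translocation 92.3 (10 of 12), degradation 74.3 (12 of 14) and glycoprotein handling 71.1 (9 of 11). Quality control and signalling genes were the lowest group, with a median of 60.9 and 8 of 15 above.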

How the data were processed

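H3K4me3 MINT-ChIP libraries of 4 non-senescent and 4 senescent EndoC-βH3 samples were aligned by the authors to hg38 with Bowtie2, and peaks were called with HOMER. Versions, duplicate handling and whether replicates were pooled for peak calling are not given in the sources used here. The deposited table gives, per region, a signal: the authors' DESeq2 mean of normalized counts over all samples compared. Its 5 other columns hold the authors' own comparison of the states (log2 fold change, its standard error, the test statistic, the p-value and the adjusted p-value) and were not used.

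Regions were linked to start sites of all transcripts of protein-coding genes (GENCODE release 44) with Python 3.11.15, pandas 2.3.3, numpy 2.4.6 and pysam 0.24.0. A region overlapping 2 kb on either side of a start site was a candidate and the one with the highest mean signal was kept, for members and all other genes alike. No filter on low values was applied. Width is the end minus the start as deposited. Percentiles are ranks among 15085 promoters. GC content and CpG ratio came from hg38, and the linking, ranking and motif search were tested on simulated data. All 51 RefSeq windows of members equalled the hg38 sequence.

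All members are named. Full values are given for the 5 highest, the 5 lowest and those with an ER stress element. The members and gene lists were chosen with earlier results of these data known. Alternatives were windows of 1 and 5 kb, canonical or protein-coding transcripts only, the nearest region or the sum of regions, a minimum mean signal of 10, 100 or 1000 similar promoters, each shared region counted once, and other motif searches.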

Additional observations from a re-analysis of the deposited data

How the results depend on the processing

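Of 47 recomputed counts, 45 stayed within 1.5 times the reported one. The exceptions were members with more than 1 region near a start site, 9 of 40 with start sites from canonical transcripts only, and members with an ER stress element of either kind, 17 of 37 with 1 mismatch allowed (4.49% of genes with a region), where looser matching admits more sequences by construction. A search of 500 bases on either side of the start site gave 11 members (0.272% of genes). Members above the median mean signal numbered 32 to 33 under all alternatives, and above the median per kb 25 to 29. The restriction to protein-coding transcripts was chosen after seeing the data. No paired analysis was possible because the table used holds a mean over all 8 samples and no value per sample. For the same reason no replicate could be left out, and the precision of each mean is unknown.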
